A study of Mus musculus with 6 samples.

Results

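The genes described here are 9 members of the K2P family of leak potassium channels, Kcnk1, Kcnk2, Kcnk3, Kcnk4, Kcnk9, Kcnk10, Kcnk12, Kcnk13 and Kcnk18. They were found by gene name among the 31469 rows of an RNA sequencing table, where each name had a single row. The table holds 6 libraries of sensory neurons that express parvalbumin, taken at postnatal day 21 from the lumbar 4 dorsal root ganglion of C57BL/6 mice. Of these, 3 libraries were wild type and 3 carried a Dicer knockout driven by parvalbumin-Cre, so that the enzyme that cuts microRNA precursors into mature microRNAs was removed from parvalbumin-expressing cells. The labels do not say whether the wild-type animals carried Cre or a floxed Dicer allele, how many cells or animals each library holds, or whether libraries came from separate animals, and p-values therefore measure only the spread between these samples. Levels are TPM, a share of each library's transcripts that is corrected for transcript length and scaled to the same total in every library.

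K2P subunits carry a pair of pore loops each and work as dimers that let potassium leak out of the cell near the resting potential. This leak holds the membrane hyperpolarised, sets the input resistance and so the current needed to fire the neuron. The family falls into branches: the weakly conducting TWIK channels, the TREK and TRAAK channels opened by membrane stretch, warmth and lipids, the TASK channels closed by extracellular acid, the THIK channels blocked by halothane, and TRESK, which is switched on by the calcium-dependent phosphatase calcineurin. In myelinated afferents, to which proprioceptors belong, TREK and TRAAK channels are known from the nodes of Ranvier, and TRESK is known from smaller sensory neurons of pain and itch.

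No K2P gene passed the test of knockout against wild type. Of the 9 genes, 6 reached the filter of a mean of 1 TPM over the 6 libraries, and 0 of these had an adjusted p below 0.05 (limma on log2(TPM + 1), Benjamini and Hochberg adjustment over all 13787 tested rows), where 5.03% of tested rows did (1.86% higher and 3.17% lower in knockout). At an unadjusted limma p below 0.05, Kcnk1 was lower and Kcnk4 and Kcnk18 were higher in the knockout libraries, where 23.8% of tested rows met that mark. The same 3 genes were those whose groups did not overlap, as was the case for 28.9% of tested rows. With 3 libraries a group the smallest p of an exact permutation test is 0.1, so none was run on single genes. In bulk samples, fewer cells of a type and less RNA per cell cannot be told apart.

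The other checks of the libraries concern every result. Dicer1 read 36.7, 26.0 and 48.7 TPM in wild type against 24.0, 20.8 and 21.8 TPM in knockout (log2 difference -0.68, limma adjusted p = 0.104). The groups did not overlap, and the value covers the gene as a whole, not the deleted part alone. Dicer1 passed in 1 of 15 alternatives, without wild-type replicate 2 (log2 difference -0.90, limma adjusted p = 0.0412), and was at -0.39 with the satellite glia covariate (0.346), -0.46 without wild-type replicate 3 (0.252) and -0.45 in the 4 libraries without replicate 3 (0.355). Pvalb, the gene that marked the cells, was called lower (log2 difference -1.73, limma adjusted p = 0.0452). That call was lost without any single library other than knockout replicate 3 (adjusted p from 0.0804 to 0.149) and with the satellite glia covariate (0.153). It was also lost with a pseudocount of 0.1 TPM (0.0552) and without a filter on low values (0.0932). In both groups replicate 3 expressed the Y-linked Ddx3y (33.3 and 32.7 TPM) and not Xist, and the other 4 libraries expressed Xist. All 8 proprioceptor markers were present in every library. All 8 were lower in every knockout library than in any wild-type library, as were 17.1% of tested rows. Of the 8, 6 were called lower (Pvalb, Runx3, Etv1, Spp1, Esrrg and Heg1), where 3.17% of tested rows were. The marker lists were chosen with earlier results of these data known, so these counts are no independent check. Transcripts of satellite glia, which wrap sensory neuron bodies, summed to 847 to 1844 TPM in wild type and to 470 to 1010 TPM in knockout over 10 markers. Among the 10, Fabp7 and Gja1 were called lower (limma adjusted p = 0.0412 and 0.0408). The Fabp7 call was lost without wild-type replicate 1 (0.0796) or 3 (0.118) or knockout replicate 1 (0.13) or 2 (0.0982), and the Gja1 call without any 1 of the 6 libraries (0.0599 to 0.121). Both calls were also lost without a filter on low values (0.0903 and 0.0868) and with the satellite glia covariate (0.0778 and 0.139), which includes both genes. The Gja1 call was lost as well with a pseudocount of 0.1 TPM (0.0513) and in the 4 libraries without replicate 3 (0.179). The markers did not all go one way. Glul, which encodes glutamine synthetase, averaged 149 TPM in wild type and 226 TPM in knockout (log2 difference 0.65, limma adjusted p = 0.105), with every knockout library above every wild-type library. Cadm2 averaged 33.4 and 50.7 TPM with overlapping groups (0.60, limma adjusted p = 0.153), and neither gene passed the test.

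MicroRNAs, which Dicer matures, act through short matches in 3' untranslated regions, so the K2P sequences searched for such matches come first. No mature microRNA level was used here. The miR-183, miR-96 and miR-182 microRNAs are transcribed together and are typical of sensory neurons. Their mature sequences (RefSeq, GRCm38.p6) are shown with the seed, bases 2 to 8, in capitals, because the 3 seeds are close to each other and still pair with different sites.
mmu-miR-183-5p: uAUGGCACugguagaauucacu
mmu-miR-96-5p: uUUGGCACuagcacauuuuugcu
mmu-miR-182-5p: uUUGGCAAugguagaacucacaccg
The matches to these seeds in the 3 genes whose groups did not overlap and in Kcnk10, which holds 3 matches to miR-183 and 1 to miR-182, are shown next with up to 10 flanking bases, from GENCODE vM21 transcripts on GRCm38. The capitals mark the 7 bases that pair with the seed.
Kcnk1, miR-183 match: tgatcacctgGTGCCATacactgggga
Kcnk4, miR-182 match: agtccagtggTTGCCAAatgccaccgc
Kcnk18, miR-182 match: attccagccgTTGCCAAaagcggcttc
Kcnk10, first miR-183 match: atatttcactGTGCCATacacaactga
Kcnk10, second miR-183 match: tgcaggttaaGTGCCATtaacacattg
Kcnk10, last miR-183 match: cagtcaacttGTGCCATagatgctgct
Kcnk10, miR-182 match: tttctgcattTTGCCAAtgcttcatgt
A match to at least 1 of these 3 seeds stood in 6 of the 9 K2P genes (Kcnk1, Kcnk2, Kcnk4, Kcnk9, Kcnk10 and Kcnk18). Such a match stood in 27.9% of the 11514 tested genes with an annotated 3' untranslated region. These shares take no account of length, and a longer region can hold more matches by chance. The regions of Kcnk9 (11030 bases), Kcnk10 (5370), Kcnk2 (1860) and Kcnk18 (1765) were longer than the median of 1250 bases among tested genes. Those of Kcnk1 (934) and Kcnk4 (321) were shorter. Kcnk9, Kcnk12 and Kcnk13 were under the filter and so were not among the 11514. Enrichment at matched length was not tested. Of the 6 genes with a match, Kcnk1 was lower in every knockout library than in any wild-type library. Kcnk4 and Kcnk18 were higher in every one. The groups of Kcnk2, Kcnk9 and Kcnk10 overlapped. Whether the matches bear on these levels was not tested.

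Kcnk1 encodes TWIK-1, a channel with a small current at the cell surface that is found widely in neurons and glia. Wild-type libraries held 314, 323 and 288 TPM of it, against 237, 178 and 253 TPM in knockout. The lowest wild-type library lay above the highest knockout library, and knockout replicate 2 was the lowest of the 6. Wild type averaged 308 ± 18.2 TPM and knockout 223 ± 39.4 TPM (SD, n = 3 each), which puts the knockout mean 27.7% lower. The log2 difference was -0.48 (SE 0.14, limma unadjusted p = 0.0081, adjusted p = 0.0843; unadjusted 95% interval -0.80 to -0.16), and it did not pass the test. Kcnk1 lies on chromosome 8 from 125995170 to 126030685 (GRCm38, plus strand). Its level stood above that of 98.2% of all rows in the wild-type means, while the next K2P gene, Kcnk4, was at 6.67 ± 1.07 TPM. Fabp7 and Gja1 were also lowest in knockout replicate 2 (104 and 0.93 TPM), and with the mean level of the satellite glia markers as a covariate the Kcnk1 difference was -0.39 (limma adjusted p = 0.259).

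**Figure D1:**
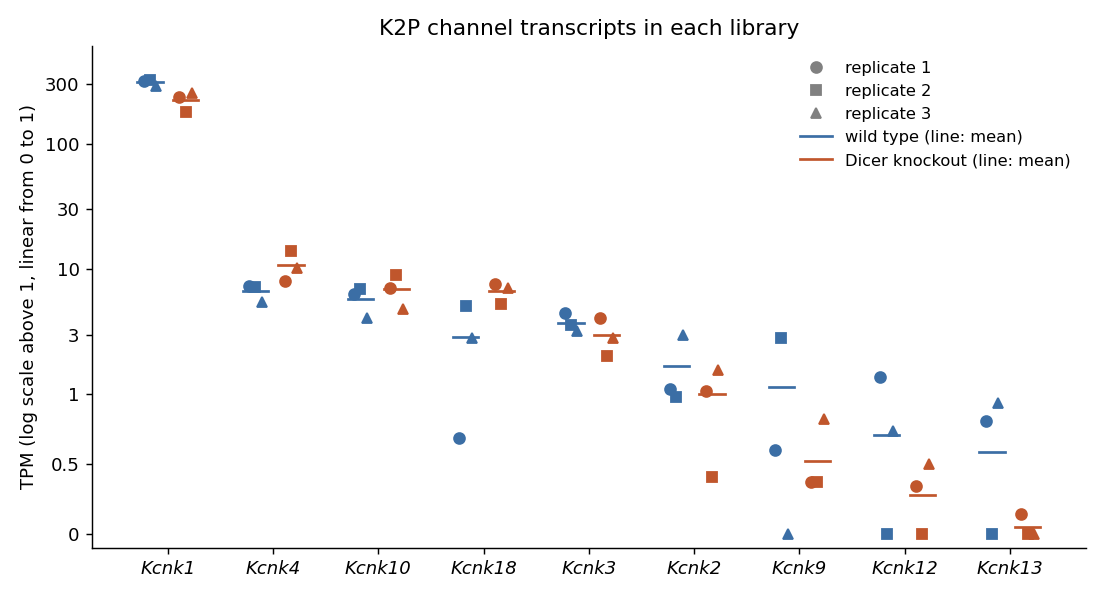
TPM of the 9 K2P genes (horizontal axis, ordered by mean) in each of 3 wild-type (blue) and 3 Dicer knockout (orange) libraries, with the replicate as the symbol and a short line at each group mean; the vertical axis is logarithmic above 1 TPM and linear from 0 to 1. Kcnk1 stands at 178 to 323 TPM in every library, and no other K2P gene exceeds 13.89 TPM.

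Genes of the stretch-sensitive branch were next in level. Kcnk4, which encodes TRAAK, a mechanically gated leak channel of nodes of Ranvier, was at 7.37, 7.19 and 5.44 TPM in wild type and at 8.02, 13.89 and 10.2 TPM in knockout. All 3 knockout libraries lay above all 3 wild-type libraries, with replicate 2 again the most distant knockout library and replicate 1 close to wild type. The means of 6.67 ± 1.07 and 10.7 ± 2.97 TPM (SD, n = 3 each) gave a log2 difference of 0.59 (SE 0.25, limma unadjusted p = 0.0431, adjusted p = 0.195; unadjusted 95% interval 0.02 to 1.16). With the satellite glia covariate it was 0.37 (adjusted p = 0.489). Kcnk4 lies on chromosome 19 from 6923966 to 6934515 (minus strand).

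Kcnk10, which encodes TREK-2, was at 6.31, 6.90 and 4.09 TPM in wild type and at 7.06, 8.99 and 4.80 TPM in knockout. The groups overlapped, and replicate 3 was the lowest library of each group. The log2 difference was 0.22 (SE 0.29, limma adjusted p = 0.684; unadjusted 95% interval -0.44 to 0.88), and it ran from 0.03 without wild-type replicate 3 to 0.43 without knockout replicate 3. Kcnk2, which encodes TREK-1, was the least abundant of this branch, at 1.10, 0.98 and 2.97 TPM in wild type and 1.06, 0.41 and 1.55 TPM in knockout. The groups overlapped here too, with replicate 3 the highest of each. Its log2 difference was -0.39 (SE 0.43, limma adjusted p = 0.627; unadjusted 95% interval -1.36 to 0.59), and it shrank to -0.06 without wild-type replicate 3 and to -0.15 without knockout replicate 2. The direction of both genes depended on the satellite glia covariate, which gave 0.13 for Kcnk2 and -0.17 for Kcnk10. Kcnk2 lies on chromosome 1 from 189207930 to 189402273 and Kcnk10 on chromosome 12 from 98429437 to 98578310, 6.11 Mb from Dicer1 (104687742 to 104751952).

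Kcnk18, which encodes TRESK, had the largest log2 difference of the 6 tested K2P genes with all libraries in the fit. It was at 0.69, 5.08 and 2.84 TPM in wild type and at 7.63, 5.28 and 7.05 TPM in knockout. The groups did not overlap, but wild-type replicate 2 lay just below knockout replicate 2, and the wild-type libraries spread widely. Wild type averaged 2.87 ± 2.20 TPM and knockout 6.65 ± 1.22 TPM (SD, n = 3 each), with a log2 difference of 1.16 (SE 0.44, limma unadjusted p = 0.0284, adjusted p = 0.157; unadjusted 95% interval 0.15 to 2.16). Wild-type replicate 1 weighed most on this value: without it the difference was 0.65 (limma adjusted p = 0.263), and that of Kcnk4 was 0.66. Kcnk18 lies on chromosome 19 from 59219214 to 59237374 (plus strand).

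Transcripts of nociceptors, in which TRESK is known, were present in these libraries. The 8 nociceptor genes summed to 95.7 to 309.9 TPM in wild type and to 166 to 213 TPM in knockout. Among them the sodium channel gene Scn10a was at 7.38, 7.44 and 0 TPM in wild type and 13.4, 17.1 and 14.1 TPM in knockout (limma adjusted p = 0.144). Its relative Scn11a was at 8.37, 2.10 and 1.71 TPM against 10.9, 9.63 and 11.0 TPM (limma adjusted p = 0.0917, and 0.0143 without wild-type replicate 1). Both were higher in every knockout library than in any wild-type library, as Kcnk18 and 11.8% of tested rows were, although neither passed the test. Of the other tested nociceptor genes, Tac1 was lower in every knockout library, and the groups of Calca and P2rx3 overlapped. Scn10a, Scn11a and Kcnk18 did not rank the wild-type libraries alike: wild-type replicate 1 had the least Kcnk18 and the most Scn11a. Of the 5 nociceptor genes tested, Tac1, which encodes substance P, was the only one called, and it fell (log2 difference -3.57, limma adjusted p = 0.0128, and 0.0629 with a pseudocount of 0.1 TPM). Over all tested rows, 3.17% were called lower. The most abundant, Calca, was at 150 ± 88.0 and 142 ± 26.6 TPM. Trpv1, the capsaicin receptor gene, was at 0 in 5 of the 6 libraries and at 0.30 TPM in wild-type replicate 1. The part of other neuron classes in the Kcnk18 values was not tested. Scn10a and Scn11a were singled out after their values were seen.

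**Figure D2:**
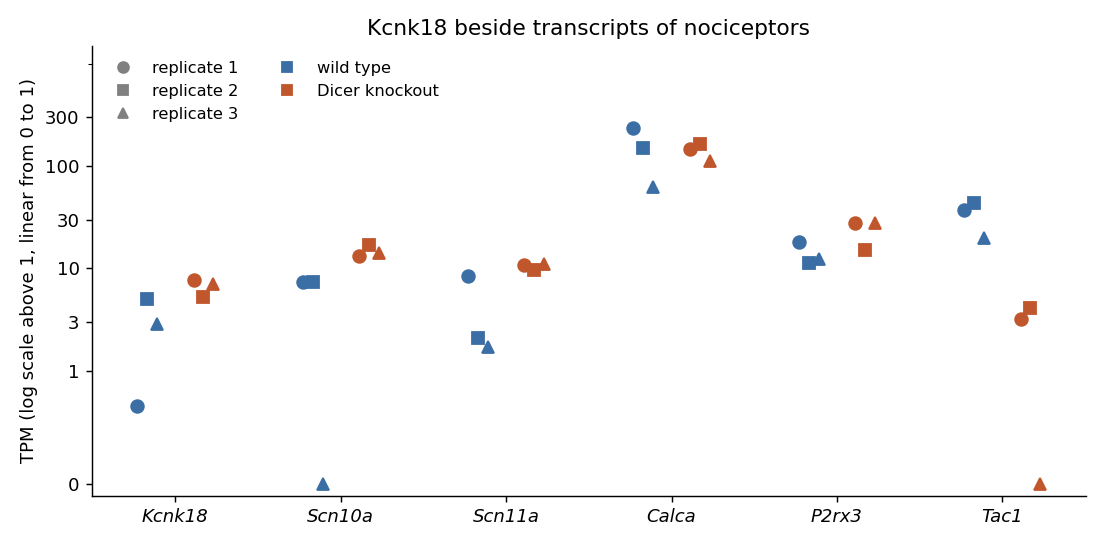
TPM of Kcnk18 and of 5 tested nociceptor genes in each wild-type (blue) and Dicer knockout (orange) library, on an axis that is logarithmic above 1 TPM and linear from 0 to 1. Kcnk18, Scn10a and Scn11a have all 3 knockout libraries above all 3 wild-type libraries, Tac1 has them below, and the groups of Calca and P2rx3 overlap.

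The acid-sensitive branch was sparse. Kcnk3, which encodes TASK-1, was at 4.42, 3.60 and 3.19 TPM in wild type and 4.05, 2.04 and 2.80 TPM in knockout, with overlapping groups. The log2 difference was -0.28 (SE 0.30, limma adjusted p = 0.615; unadjusted 95% interval -0.97 to 0.40), and it was -0.10 without knockout replicate 2 and -0.47 without knockout replicate 1. Kcnk9, which encodes TASK-3, was at 0.60, 2.82 and 0 TPM in wild type and at 0.37, 0.37 and 0.82 TPM in knockout. Only wild-type replicate 2 exceeded 1 TPM, and the gene stayed under the filter. Kcnk3 lies on chromosome 5 (30588170 to 30625271) and Kcnk9 on chromosome 15 (72501089 to 72546340).

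The THIK genes were near the limit of what these libraries show. Kcnk12, which encodes the mostly silent THIK-2, was at 1.38, 0 and 0.74 TPM in wild type and at 0.34, 0 and 0.50 TPM in knockout. Kcnk13, which encodes THIK-1, a channel well known from microglia, was at 0.81, 0 and 0.94 TPM in wild type and at 0.14, 0 and 0 TPM in knockout. Replicate 2 of both groups listed both genes at 0, so neither group kept a steady level, and a 0 in an RSEM table can be a failed estimate. Without the filter on low values, the limma adjusted p was 0.631 for Kcnk12, 0.337 for Kcnk13 and 0.785 for Kcnk9. Macrophage and microglia transcripts were scarce: 8 of 9 markers stayed under 1 TPM in all 6 libraries, with C1qa and C1qc at 0 throughout, and the list summed to 6.02 to 8.76 TPM in wild type and 3.99 to 6.07 TPM in knockout, most of it Lyz2. Kcnk12 lies on chromosome 17 (87745801 to 87797994) and Kcnk13 on chromosome 12 (99964499 to 100062682), 4.63 Mb from Dicer1.

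**Figure D3:**
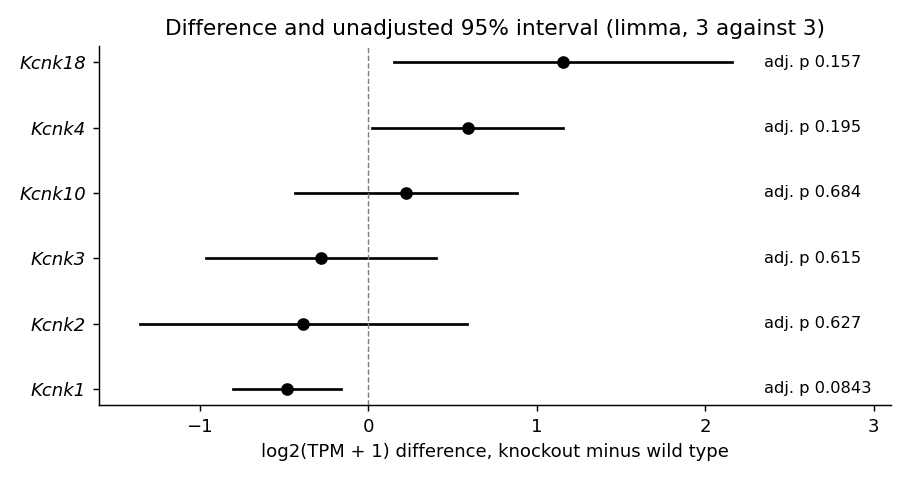
Difference of log2(TPM + 1), knockout minus wild type, for the 6 K2P genes that passed the filter (dots), with unadjusted 95% intervals (lines) from limma on 3 against 3 libraries and adjusted p at the right. The intervals of Kcnk1, Kcnk4 and Kcnk18 leave out 0, and the smallest adjusted p, that of Kcnk1, is 0.0843.

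The other 5 K2P genes of the mouse were close to absent. Kcnk5, Kcnk6, Kcnk7, Kcnk15 and Kcnk16 stayed under 1 TPM in all 6 libraries, and Kcnk15 and Kcnk16 were listed at 0 in each. Their sum was at most 0.63 TPM in wild type and 1.26 TPM in knockout.

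Because TPM corrects for transcript length, the levels of the 9 genes could be set in order. In wild type the order of the means was Kcnk1, Kcnk4, Kcnk10, Kcnk3, Kcnk18, Kcnk2, Kcnk9, Kcnk12 and Kcnk13. Only the step from Kcnk1 to Kcnk4 was free of overlap between the libraries of neighbours. In knockout the order was the same except that Kcnk18 stood above Kcnk3, and the steps from Kcnk1 to Kcnk4, from Kcnk18 to Kcnk3 and from Kcnk3 to Kcnk2 were free of overlap.

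The 9 genes summed to 337, 350 and 308 TPM in wild type and to 265, 209 and 281 TPM in knockout. Kcnk1 made up 93.3%, 92.4% and 93.4% of the sum in wild type and 89.2%, 85.2% and 90.1% in knockout, so its share was lower in every knockout library. The other 8 genes together were at 22.7, 26.6 and 20.2 TPM in wild type and at 28.7, 31.0 and 27.7 TPM in knockout, higher in every knockout library. Of these, only Kcnk4, Kcnk10 and Kcnk18 had a higher mean in knockout. The means of Kcnk2, Kcnk3, Kcnk9, Kcnk12 and Kcnk13 were lower. The ratio of Kcnk1 to the other 8 genes was 13.4 ± 1.11 in wild type and 7.72 ± 1.75 in knockout (SD, n = 3 each). These sums were formed over genes chosen with earlier results known and carry no test.

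**Figure D4:**
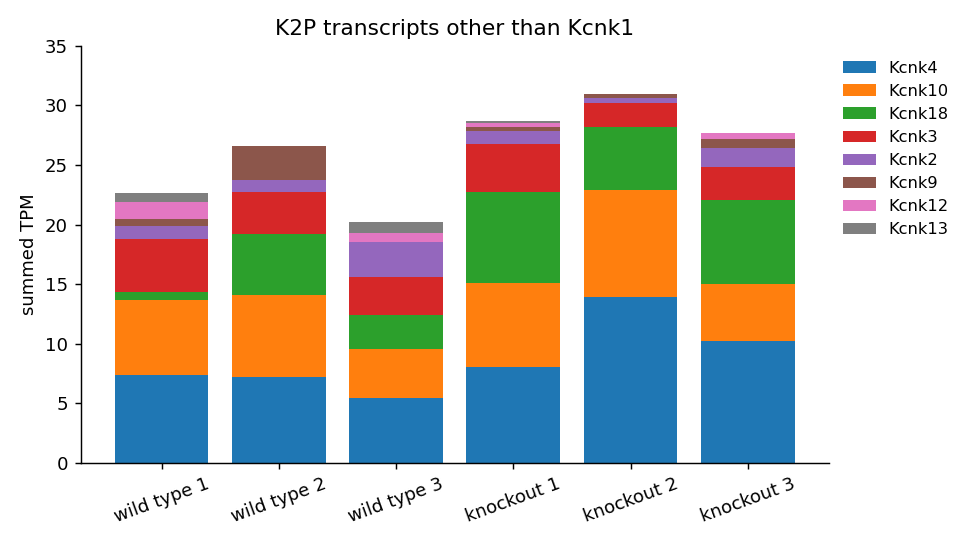
Summed TPM of the 8 K2P genes other than Kcnk1, stacked by gene, in each of the 6 libraries. The sum runs from 20.2 to 26.6 TPM in wild type and from 27.7 to 31.0 TPM in knockout, and Kcnk4, Kcnk10 and Kcnk18 make up most of each knockout bar.

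Genes known to act on K2P channels mostly did not pass the test. Of 26 tested regulators and partners, 1 rose, 1 fell and 24 did not pass. Over all tested rows, 1.86% were called higher and 3.17% lower. The median log2 difference of the list was 0.09, against -0.05 over all tested rows. Ppp3r1, which encodes the regulatory subunit of calcineurin, rose from 252, 189 and 241 TPM to 319, 340 and 351 TPM (log2 fold change 0.58, SE 0.13, limma adjusted p = 0.0391). All knockout libraries lay above all wild-type libraries. The call did not hold when any single library other than wild-type replicate 1 was left out (limma adjusted p from 0.0786 to 0.122), nor with the satellite glia covariate (log2 fold change 0.70, adjusted p = 0.0675), without a filter on low values (0.58, 0.0704) or in the 4 libraries without replicate 3 (0.59, 0.148), although the fold change was no smaller in these 3 fits. Sort1, which encodes sortilin, a sorting receptor that binds TREK-1, fell from 25.2, 27.6 and 25.1 TPM to 10.2, 4.45 and 13.4 TPM (log2 fold change -1.49, SE 0.32, limma adjusted p = 0.0349). The groups were far apart, with knockout replicate 2 the lowest. Its call was lost without wild-type replicate 1 (adjusted p = 0.0614), 2 (0.0835) or 3 (0.0917) or knockout replicate 1 (0.0913), with the satellite glia covariate (0.129), without a filter on low values (0.0769) and in the 4 libraries without replicate 3 (0.0600). Ywhah, a 14-3-3 protein gene and the most abundant of the list over the 6 libraries together, averaged 2541 TPM in wild type and 2277 TPM in knockout, with overlapping groups (limma adjusted p = 0.463).

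Other channels of the resting membrane gave 1 call. Of the 6 tested inward rectifier potassium channel genes, which also pass current near rest, Kcnj11 fell and 5 did not pass. Over all tested rows, 3.17% were called lower. Kcnj11, which encodes the pore subunit of ATP-sensitive potassium channels, was at 7.92, 8.11 and 8.30 TPM in wild type and at 1.54, 0.83 and 2.02 TPM in knockout. The wild-type libraries were nearly equal, and each knockout library lay far below them. The log2 fold change was -1.92 (SE 0.29, limma adjusted p = 0.00981), and the call held whichever single library was left out, though not in the 4 libraries without replicate 3 (adjusted p = 0.0525). Kcnj3, a subunit of G protein-gated channels and the most abundant rectifier, was at 25.8 ± 1.41 and 29.6 ± 4.07 TPM (limma adjusted p = 0.507). None of the 4 tested genes of the sodium leak channel complex, whose inward current opposes the potassium leak, had an adjusted limma p under 0.05. At an unadjusted limma p under that mark 1 was lower, where 1940 of the 13787 tested rows were lower and 23.8% met it in either direction. The most abundant, Unc80, was at 296 ± 62.2 and 219 ± 63.3 TPM.

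Across the 6 libraries, the tested genes with the level pattern most like that of Kcnk1 were Gphn, Ngfrap1 and Tbcel. Rows named only by a uc identifier, a gene model or a Riken clone were left out of this ranking. Gphn encodes the scaffold protein gephyrin of inhibitory synapses, and Tbcel a tubulin cofactor-like protein. Pearson's correlation of log2(TPM + 1) with Kcnk1 was 0.995 for Gphn, 0.995 for Ngfrap1 and 0.994 for Tbcel. The 6 points share 2 genotypes, so the difference between the groups enters each correlation. Ngfrap1 was called lower (log2 fold change -1.32, limma adjusted p = 0.0347, and 0.066 to 0.0826 without knockout replicate 1 or any 1 wild-type library). That call was also lost with the satellite glia covariate (0.130) and without the filter on low values (0.0772). Gphn and Tbcel were not called (limma adjusted p = 0.178 and 0.106).

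Matches to 20 microRNA families, the miR-183 group included, were counted in the longest annotated 3' untranslated region of each gene. Kcnk9 (11030 bases) and Kcnk10 (5370 bases) had the longest regions and held matches to 13 and 9 families, where the median tested gene had 1250 bases and matches to 2 families. Kcnk1 (934 bases) held matches to 4 families, which were miR-183, miR-26, miR-128 and miR-218. Kcnk4 (321 bases) held matches to miR-9 and miR-182, and Kcnk18 (1765 bases) to let-7, miR-182 and miR-26. Kcnk2 (1860 bases) held 4 families, Kcnk3 (2434 bases) 5, and Kcnk12 (139 bases) and Kcnk13 (797 bases) none of the 20. Kcnk9, with the most families, was under the filter, and Kcnk10 had a log2 difference of 0.22 (SE 0.29). Whether the number of families goes with the differences was not tested. A let-7 match stood in 10.6% of tested genes and a miR-128 match in 23.2%. A match is a description of the sequence, and whether a microRNA acts on it in these neurons was not tested.
Among the K2P genes, Kcnk3 also held 1 let-7 and 1 miR-9 match, with a log2 difference of -0.28. Kcnk9, under the filter, held 2 miR-9 matches, with means of 1.14 TPM in wild type and 0.52 TPM in knockout. The let-7 match of Kcnk18 and the miR-9 match of Kcnk4 are printed because these are the 2 genes with higher levels in every knockout library. As they were picked by those levels, they cannot serve as evidence about them. Neither gene passed the test (limma adjusted p = 0.157 for Kcnk18 and 0.195 for Kcnk4). Kcnk1, lower in every knockout library, held matches to 4 families. Capitals are as before.
Kcnk18, let-7 match: ccttgaagatCTACCTCaggcactgga
Kcnk4, miR-9 match: ggcttatttgACCAAAGagccgtccct

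**Figure D5:**
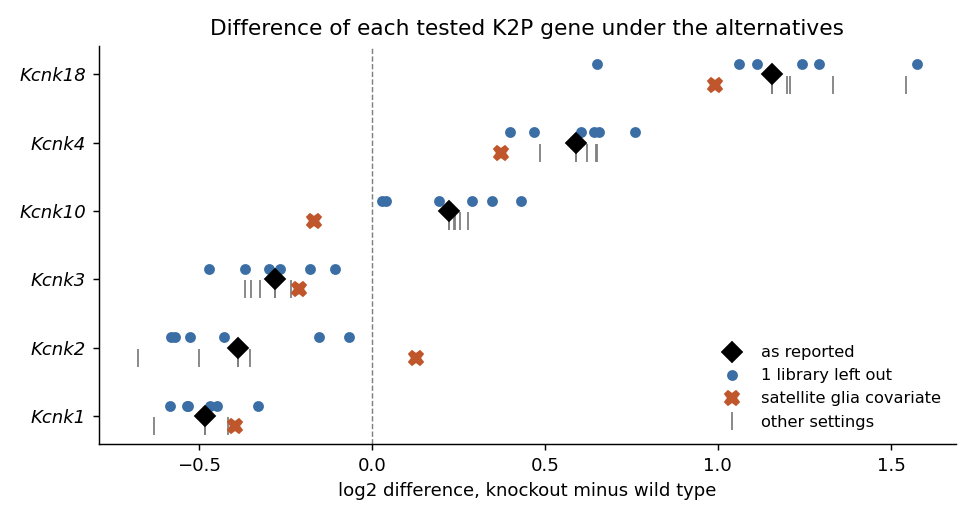
Log2 difference, knockout minus wild type, of the 6 tested K2P genes under each processing setting: as reported (diamond), with 1 library left out (circles), with the glia covariate (cross) and under the other settings (ticks). Kcnk1, Kcnk3, Kcnk4 and Kcnk18 stay on 1 side of 0 under every setting shown, and Kcnk2 and Kcnk10 cross it with the satellite glia covariate.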

How the data were processed

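Per the labels' protocols, RNA was extracted with the PicoPure kit and amplified with an Ovation kit before library preparation, and such amplification adds noise to rare transcripts. Per the submitters' processing notes, cutadapt, Bowtie2 and RSEM 1.2.7 were used with the mm10 build. The name of the annotation was not given in the sources used here. Values were deposited by the authors as TPM, 1 column per library, so sequencing depth is unknown and no interval that needs it is given. limma 3.58.1 in R 4.3.3 was fitted to log2(TPM + 1) with an intensity trend and genotype as the only term, over the 13787 rows whose mean reached 1 TPM, two-sided, with a threshold of 0.05 on Benjamini-Hochberg adjusted p. The step was checked on simulated data. The K2P genes, gene lists and tests were chosen with earlier results of these data known. Lists held 27 regulators and partners, 14 inward rectifiers, 5 sodium leak genes, 5 other K2P genes and markers of 6 cell types. Kcnj9 and Fam155b were not found by name, and 1 nociceptor marker is not reported here. Named genes were the 9 K2P genes, Dicer1 and Pvalb, called list members, the most abundant member of each cell type list, the most abundant uncalled member of each channel or regulator list, and the 3 symbols best correlated with the most abundant K2P gene. Scn10a, Scn11a, P2rx3, Trpv1, C1qa, C1qc, Glul, Cadm2, Mbp, Ddx3y, Xist and the other 5 K2P genes were named outside this rule, after their values were seen. Of the cell type lists, the 3 tested myelinating Schwann cell genes had 1 higher call, Pmp22, where 1.86% of all tested rows did. Mbp, at 14.1 TPM in wild type and 6.77 TPM in knockout without overlap, did not pass (log2 difference -0.94, limma adjusted p = 0.0568). The endothelial list had 1 tested gene, Egfl7, with 0 called by limma (0 at an unadjusted p below 0.05). Seed matches were searched with Python 3.11.15 in 3' untranslated regions of GENCODE vM21 (84.2% of tested names) for 20 microRNAs from RefSeq. mmu-miR-124-3p was listed and not searched.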

Additional observations from a re-analysis of the deposited data

How the results depend on the processing

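No K2P gene passed the threshold under any of the 15 alternatives, with 0 called higher and 0 called lower in each. Kcnk1 ranged from -0.63 to -0.33 (limma adjusted p 0.0709 to 0.259), Kcnk4 from 0.37 to 0.76 (0.178 to 0.489), Kcnk18 from 0.65 to 1.57 (0.0798 to 0.341), Kcnk3 from -0.47 to -0.10 (0.506 to 0.897), Kcnk2 from -0.68 to 0.13 (0.538 to 0.956) and Kcnk10 from -0.17 to 0.43 (0.443 to 0.972). With the satellite glia covariate Kcnk2 turned to 0.13 and Kcnk10 to -0.17; the cause was not tested. Kcnk2, Kcnk3 and Kcnk18 fell under the filter at 5 TPM, and Kcnk2 also without replicate 3, and gave no value there. Over all rows, 256 were called higher and 437 lower. The counts were 130 and 248 without a filter on low values, where more rows were tested, 87 and 126 with the satellite glia covariate, and 65 and 139 in the 4 Xist-expressing libraries, where fewer samples were tested. Leaving out 1 library gave 48 to 348 higher and 116 to 487 lower. With median-of-ratios rescaling 366 were higher and 398 lower, which moved the share of higher calls from 36.9% to 47.9%; the 3 K2P genes whose groups did not overlap were still the only ones of the 9. With the replicate number as a block, 188 rows were called higher and 341 lower, Kcnk1 was at -0.48 (adjusted p = 0.117), Kcnk4 at 0.59 (0.211) and Kcnk18 at 1.16 (0.164), and the call of Ppp3r1 was lost (0.0626). Deviations of same-numbered libraries correlated at 0.05, 0.07 and 0.04 over the tested rows, and the numbers were not taken as pairs. Correlations over so many rows cannot show that no pairing exists. With the block, the SE fell for Fabp7 (0.40 to 0.19) and Tac1 (0.58 to 0.30) and rose for Kcnk1 (0.142 to 0.153). Wild-type replicates 1 and 2 correlated best with their own number and replicate 3 with knockout replicate 1. Replicate 3 of both groups expressed Ddx3y. Sequencing depth is unknown, which limits what can be said of genes under 1 TPM.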
